A study of Mus musculus with 2 samples.

Results

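Metallothioneins and zinc transport were followed through 7 genes in liver cells: Mt1, Mt2, Mtf1, Slc30a1, Slc30a10, Slc39a14 and Slc39a4. They were found by symbol among the 32285 genes of the matrix, and 7 of 7 were present and had counts. Single-cell RNA-Seq was performed on 2 mouse liver samples, labelled Cebp KO and Cebp WT for genotype, both from mice given 40% HFCFD, a NASH-promoting diet rich in fat, cholesterol and fructose, for 2 weeks. The methods of the study describe deletion of a floxed Cebpa gene by Cre under the albumin promoter, which acts in hepatocytes and leaves Cebpa in other cells. Livers were perfused and digested, and cells were purified on 35% Percoll. The study used male mice. The age of these mice, the pooling of animals and the Cre line behind each sample are not given in the labels.

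Barcodes of the 2 libraries ended in the suffix 1 or 2, and no label ties a suffix to a genotype, so they are described below as suffix 1 and suffix 2. A difference between them compares 2 libraries and not a knockout with a wild type, and with 1 library each no test was possible. Cebpa itself had 19 UMIs (unique molecular identifiers, each marking 1 captured cDNA molecule) in the deep hepatocyte-like cells of suffix 1 and 842 in those of suffix 2, and no genotype was assigned from these values. The libraries stood apart in their mitochondrial RNA, with a median of 4.07% of UMIs per barcode in suffix 1 and 41.3% in suffix 2. After droplets above 25% were left out, 11617 cells with 41533901 UMIs remained in suffix 1 and 6088 cells with 25898466 UMIs in suffix 2. They shared 81 barcodes, of which 34 were kept in both. Cells were named from marker genes, and hepatocyte-like cells were split at 5000 UMIs into 548 and 497 deep cells (suffix 1 and suffix 2, in this order throughout) and 8407 and 3364 shallow cells. All 8 hepatocyte markers were detected in them. The deep cells had a median of 2380 and 1325 hepatocyte marker UMIs. The shallow cells had 119 and 127.5, against 125 and 122 in T-like cells, so the shallow label rested on a marker load close to the one that T-like cells carried.

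Metallothioneins are small cysteine-rich proteins that bind zinc and copper in the cytosol, and the liver is a main site of their synthesis. Zinc entering a cell is sensed by the transcription factor MTF1, which binds metal response elements near the metallothionein genes and near Slc30a1. Proteins of the SLC30 family move zinc or manganese out of the cytosol, and proteins of the SLC39 family move metals into it.

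Mt1 and Mt2 lay side by side on the plus strand of chromosome 8 of GRCm38 (GENCODE release M21), Mt2 at chr8:94172664-94173568 and Mt1 at chr8:94179082-94180327, with 5513 bases between them. Each had 3 exons and 183 coding bases before the stop codon. The coding sequences are shown because the cysteine codons, in capitals, are what makes these proteins metal binding.
Mt1: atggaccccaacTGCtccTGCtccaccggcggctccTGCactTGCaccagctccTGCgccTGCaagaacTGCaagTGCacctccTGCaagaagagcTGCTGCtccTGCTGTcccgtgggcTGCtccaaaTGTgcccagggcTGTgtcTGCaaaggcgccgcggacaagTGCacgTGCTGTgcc
Mt2: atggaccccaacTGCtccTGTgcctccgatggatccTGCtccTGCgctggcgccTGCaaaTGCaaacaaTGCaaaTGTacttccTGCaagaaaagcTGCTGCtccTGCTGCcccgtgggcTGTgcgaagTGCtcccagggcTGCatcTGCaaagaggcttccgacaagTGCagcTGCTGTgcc
Each held 20 cysteine codons among 61 (32.8%), at the same 20 places. The sequences were equal at 145 of 183 bases (79.2%), and no stretch of 31 bases in the Mt1 transcript occurred in a transcript of another gene, while 3 of 481 such stretches of Mt2 also occurred in Pip5k1a.

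The core of the metal response element was searched on both strands as TGCACNC or TGCGCNC in the 250 bases before the start of 5 members, taken from RefSeq on GRCm38.p6. Slc39a14 and Slc39a4 were not searched. The stretch before the start is printed for the metallothioneins and the exporters, which held matches, with matches in capitals. RefSeq places the Mt2 start ahead of the GENCODE start, and the bases after chr8:94172617 and before the GENCODE start at chr8:94172664 were not searched.
Mt1, chr8:94178839-94179081, plus strand: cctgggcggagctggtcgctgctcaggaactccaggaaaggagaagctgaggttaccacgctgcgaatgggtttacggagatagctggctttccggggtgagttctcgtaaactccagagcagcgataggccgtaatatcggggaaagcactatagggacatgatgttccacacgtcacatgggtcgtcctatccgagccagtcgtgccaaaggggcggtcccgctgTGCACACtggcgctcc
Mt2, chr8:94172368-94172617, plus strand: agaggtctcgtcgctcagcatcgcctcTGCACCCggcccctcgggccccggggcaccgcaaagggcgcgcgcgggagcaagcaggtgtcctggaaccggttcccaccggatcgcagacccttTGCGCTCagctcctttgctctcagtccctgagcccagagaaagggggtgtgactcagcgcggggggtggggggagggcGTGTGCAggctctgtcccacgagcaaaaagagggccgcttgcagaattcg
Slc30a1, chr1:191906531-191906766, plus strand: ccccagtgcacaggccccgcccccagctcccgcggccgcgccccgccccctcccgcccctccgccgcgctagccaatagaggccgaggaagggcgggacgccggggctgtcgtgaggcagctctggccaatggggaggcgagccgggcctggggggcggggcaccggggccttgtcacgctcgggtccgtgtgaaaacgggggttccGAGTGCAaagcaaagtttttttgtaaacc
Slc30a10, chr1:185454598-185454847, plus strand: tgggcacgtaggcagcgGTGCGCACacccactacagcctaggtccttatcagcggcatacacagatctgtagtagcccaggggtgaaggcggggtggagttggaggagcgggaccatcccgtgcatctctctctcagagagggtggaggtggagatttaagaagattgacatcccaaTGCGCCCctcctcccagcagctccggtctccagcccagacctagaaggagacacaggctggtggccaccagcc
Mt1 and Slc30a1 had 1 match each. Mt2 had 3, and Slc30a10 had 3, of which 2 overlapped on opposite strands. Mtf1 had 0 in a stretch (chr4:124802299-124802548) that lies inside its GENCODE gene, and the bases ahead of the GENCODE start were not searched. Of 32817 promoters of the same length, 21.4% held at least 1 match and 1.26% held at least 3. More matches lay within the first Mt1 and Mt2 transcripts, ahead of the coding start, and they are shown with 4 bases on each side, read on the plus strand.
Mt1, 220 bases before the coding start: gctcTGCACTCcgcc
Mt1, 202 bases before the coding start: aaagTGCGCTCggct
Mt1, 138 bases before the coding start: tgctGGGTGCAaacc
Mt1, 124 bases before the coding start: ccttTGCGCCCggac
Mt2, 172 bases before the coding start: gggcGTGTGCAggcg
Mt2, 153 bases before the coding start: gggcGCGTGCAtggt
Mt2, 119 bases before the coding start: ctttTGCGCTCgacc
Mt1 had 4 matches in these 229 bases and Mt2 had 3 in 184 bases. The next annotated starts of Mt1 transcripts lie 129 and 159 bases after the first, and all 4 Mt1 matches lie ahead of both. These matches are thus upstream of some annotated Mt1 starts and within the transcript for the first. Among 58527 coding transcripts, 0.155% held at least 4 in a stretch as long as that of Mt1, and among 58654, 0.515% held at least 3 in a stretch as long as that of Mt2. A match describes the letters and does not show binding.

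Mt1 was the member with the most UMIs, and in the deep hepatocyte-like cells it stood several-fold higher in suffix 1 than in suffix 2. Its level was 1292 CPM (UMIs of the gene per 1000000 UMIs of the class; 95% Poisson interval 1274 to 1311) in suffix 1, from 18263 UMIs, and 267 CPM (256 to 279) in suffix 2, from 2046 UMIs. The ratio was 4.83 (95% interval 4.62 to 5.06). All intervals given cover counting error only. Mt2, the second metallothionein of liver, was at 248 CPM (240 to 256) and 32.8 CPM (28.9 to 37.1), a ratio of 7.56 (6.64 to 8.62). Among 6803 genes with at least 10 CPM in either library, these ratios ranked 34th for Mt1 and 18th for Mt2 from the highest. Hbb-bs, a haemoglobin gene of red cells, was also higher in the deep cells of suffix 1, at 698 and 117 CPM (5.98-fold, rank 26), with 2618 of its 9867 UMIs in 1 cell. In shallow cells Hbb-bs was at 2995 and 3413 CPM, a ratio of 0.878, while the metallothioneins kept their order there. In the 49 and 238 deep cells without a Hbb-bs UMI, Mt1 was at 1457 and 271 CPM (5.38-fold) and Mt2 at 288 and 27.8 CPM. These cells had fewer UMIs, with medians of 11202 and 10576.5 against 26891 and 13534 in all deep cells. The part of red cell RNA in the metallothionein ratios was not tested. Of 14 marker lists for other cell types, 3 were summed 2-fold higher in the deep cells of suffix 1, cholangiocyte (8.99 and 2.35 CPM), neutrophil (11.9 and 4.18 CPM) and B (28.2 and 11.6 CPM), and the erythroid list was lower (23.2 and 71.7 CPM). Cells that reached any of these lists were not named hepatocyte-like, so the naming rule limits these low sums and they do not measure RNA of other cells. Background is given by all genes of these cells, of which 4.57% differed by 2-fold or more, 2.56% upward and 2.01% downward in suffix 1. Of the 7 members, 2 reached 2-fold upward and 0 downward, and the median log2 ratio was 0.88 over the members and 0.04 over all genes. The upward count became 3 in 5 of 14 alternatives: Slc39a14 joined with a mitochondrial limit of 10% (3.25-fold, where Mt2 reached 13.2-fold) and with none (2.21-fold), and Slc30a1 joined with the B-like or the T-like level subtracted (2.84-fold and 2.38-fold) and with a mean over cells (2.09-fold). The genes were chosen with earlier results of these data known, so these counts are a description. Alb, the albumin gene, was at 39125 and 42113 CPM in the same cells.

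Shallow hepatocyte-like cells had the same order of the libraries. Mt1 was at 1046 and 240 CPM, a ratio of 4.36, and Mt2 was at 180 and 26.0 CPM, a ratio of 6.94. Deep over shallow, Mt1 differed 1.24-fold in suffix 1 and 1.11-fold in suffix 2, and Mt2 1.37-fold and 1.26-fold, against 1.19-fold and 1.12-fold for Alb. Between deep and shallow cells, 25.6% of the genes tested in suffix 1 and 11.3% in suffix 2 passed 2-fold. Of the members, Slc30a1 and Slc39a14 did so in suffix 1 and Slc39a14 alone in suffix 2.

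**Figure D1:**
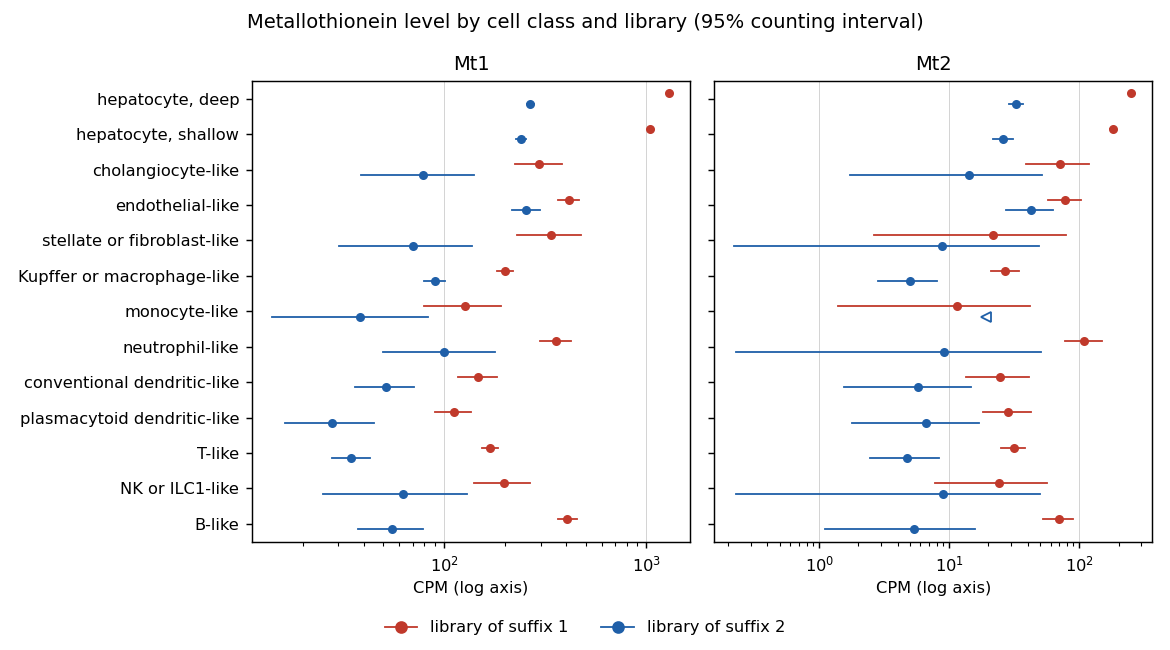
CPM (log axis) of Mt1 and Mt2 in each cell class with at least 15 cells in both libraries; points are the class sums of 1 library, bars their 95% counting intervals, and an open triangle marks 0 UMIs at the CPM that 3 counts would give. Suffix 1 lies above suffix 2 for Mt1 in each class drawn. With the B-like level subtracted, this order turned for endothelial-like cells (6.66 and 199 CPM). Neutrophil-like, Kupffer or macrophage-like, stellate or fibroblast-like, cholangiocyte-like and NK or ILC1-like cells also lie below the B-like level in suffix 1 and above it in suffix 2. Deep hepatocyte-like cells lie highest for Mt1, at 1292 and 267 CPM, with an overlap of endothelial-like cells in suffix 2. For Mt2 in suffix 2, endothelial-like cells lie highest (42.4 against 32.8 CPM in deep hepatocyte-like cells), with overlapping intervals.

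Metallothionein UMIs were not limited to droplets named hepatocyte-like, and the part of free RNA among them was not tested. Among the named classes of suffix 1, Mt1 fell in order from deep to shallow hepatocyte-like cells without overlap of their intervals, and then to endothelial-like (412 CPM), B-like (406 CPM) and neutrophil-like cells (357 CPM), whose intervals overlapped. In suffix 2, the interval of endothelial-like cells (254 CPM; 215 to 299) overlapped those of deep (256 to 279) and shallow (226.5 to 254.1) hepatocyte-like cells, which did not overlap each other. The next class was neutrophil-like at 99.8 CPM. Endothelial-like cells were thus near hepatocytes in suffix 2 and apart from them in suffix 1. Kupffer or macrophage-like cells were at 200 and 89.8 CPM and T-like cells at 169 and 34.9 CPM. B-like cells were at 406 and 55.3 CPM, and 1 cell held 49 of their 334 Mt1 UMIs in suffix 1, without which the level was 350.5 CPM. T-like cells also carried Alb, with a mean of 50.8 and 50.6 Alb UMIs per cell, which free RNA in the suspension can bring into any droplet, so T-like levels are set beside those of other classes below. For endothelial-like cells, the Mt1 ratio of the libraries was 1.62 as measured, 1.11 with the T-like level subtracted (243 and 220 CPM), and 0.0335 with the B-like level subtracted (6.66 and 199 CPM), so its direction rested on the class used as background.

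Cells that no marker list named held 3524 Mt1 UMIs in suffix 1, 9.75% of all, and were at 833 CPM, between shallow hepatocyte-like and endothelial-like cells. In suffix 2 they held 198 and were at 130.4 CPM. The remaining named classes held fewer Mt1 UMIs. Stellate or fibroblast-like cells were at 336 and 69.98 CPM (31 and 8 UMIs), and cholangiocyte-like cells at 294 and 78.2 CPM (58 and 11 UMIs). Conventional dendritic-like cells were at 148 and 51.6 CPM, plasmacytoid dendritic-like cells at 112 and 28.1 CPM, and monocyte-like cells at 126.5 and 38.4 CPM. Per 1000 Alb UMIs, stellate or fibroblast-like cells had 19.2 and 3.95 Mt1 UMIs, monocyte-like cells 15 (9.37 to 22.8) and 4.02, and plasmacytoid dendritic-like cells 13.1 and 3.04, below the deep hepatocyte-like values of 33.0 and 6.35. In suffix 2 the intervals of stellate or fibroblast-like (1.70 to 7.80) and monocyte-like cells (1.47 to 8.76) held the deep hepatocyte-like value. Cholangiocyte-like cells had 29.1 (22.0 to 37.8) and 9.05 (4.50 to 16.2), intervals that held the deep hepatocyte-like value of each library. Conventional dendritic-like cells had 22.4 (17.8 to 27.7), below that value, in suffix 1. In suffix 2 they had 6.73 (4.71 to 9.33), an interval that held it. The part of free RNA in these classes was not tested. Mt2 had the same order of the libraries, with endothelial-like cells at 78.0 and 42.4 CPM (49 and 25 UMIs), neutrophil-like cells at 109 CPM from 40 UMIs in suffix 1 and 9.07 CPM from 1 UMI in suffix 2, and Kupffer or macrophage-like cells at 26.9 and 4.99 CPM. In suffix 2, endothelial-like cells were the highest named class for Mt2, with an interval that overlapped that of deep hepatocyte-like cells (32.8 CPM). Monocyte-like cells had 2 Mt2 UMIs in suffix 1 (11.5 CPM) and 0 in suffix 2, which allows up to 19.2 CPM. Stellate or fibroblast-like cells had 2 and 1 UMIs, so the order of the libraries is not shown in these classes.

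T-like cells showed a difference between the libraries similar in size to that of hepatocyte-like cells. Mt1 differed 4.85-fold and Mt2, from 94 and 12 UMIs, 6.56-fold (31.2 and 4.75 CPM). Of all genes tested in T-like cells, 2.78% passed 2-fold. Slc39a14 passed it as well, at 29.5 and 14.7 CPM (2.01-fold), but 1 cell held 23 of its 89 UMIs in suffix 1, and the level without that cell was 22.0 CPM.

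Endothelial-like cells stood above T-like cells by more than the counting intervals. The ratio was 2.44 (2.09 to 2.84) and 7.30 (5.58 to 9.61) for Mt1, and 2.50 and 8.93 for Mt2, while Alb, which neither class makes, was at a ratio of 1.10 and 1.15. After each cell was thinned at random to 1000 UMIs, a Mt1 UMI was found in 32.0% and 15.9% of endothelial-like cells (unthinned 76.4% and 54.1%), against 15.9% and 2.53% of T-like cells (52.3% and 13.8%). Their median depths were close, 4913 and 4081 UMIs for endothelial-like and 4652.5 and 4253.5 for T-like cells. In deep hepatocyte-like cells the thinned share was 63.3% and 19.3% (unthinned 99.5% and 82.1%).

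Relative to Alb the classes differed too. Deep hepatocyte-like cells had 33.0 Mt1 UMIs per 1000 Alb UMIs (32.5 to 33.5) in suffix 1 and 6.35 (6.07 to 6.63) in suffix 2, and shallow ones had 31.7 and 6.38. T-like cells had 18.0 (16.4 to 19.6) and 3.39 (2.71 to 4.17), below the hepatocytes of their own library. B-like cells had 32.2 (28.8 to 35.9), an interval that held the deep hepatocyte-like value and overlapped that of endothelial-like cells, in suffix 1, and 3.98 (2.701 to 5.651) in suffix 2. Endothelial-like cells had 39.8 (35.0 to 45.0) and 21.5 (18.1 to 25.2), above the deep hepatocyte-like cells in both. Kupffer or macrophage-like cells had 23.9, below deep hepatocytes, in suffix 1 and 9.15, above them, in suffix 2. The part of free RNA in each class was not tested beyond these ratios.

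**Figure D2:**
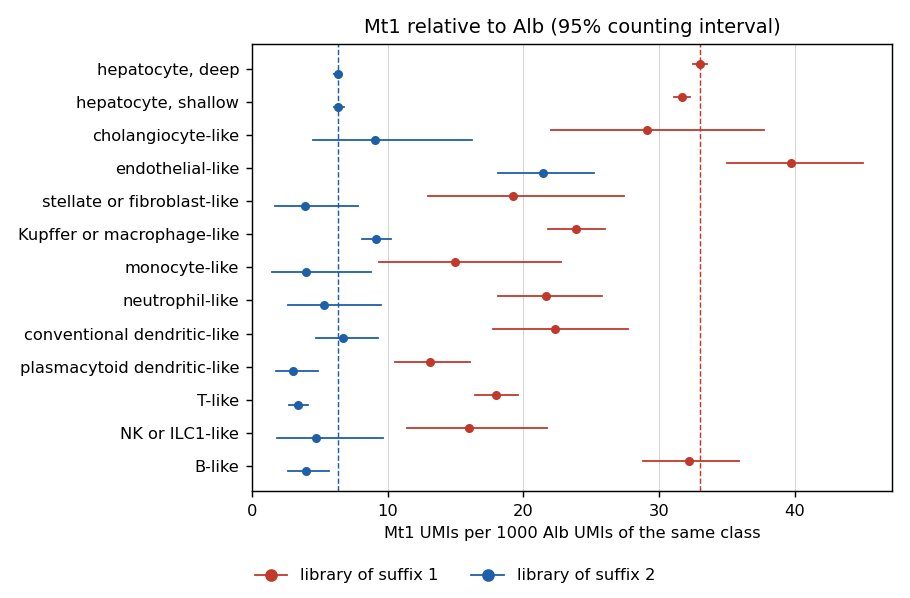
Mt1 UMIs per 1000 Alb UMIs in each cell class, by library, with 95% counting intervals and a dashed line at the deep hepatocyte-like value of each library. Endothelial-like cells lie above deep hepatocyte-like cells in both libraries (39.8 against 33.0, and 21.5 against 6.35), and T-like cells lie below them.

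The proportion of the metallothioneins to each other differed between the libraries in hepatocyte-like and in Kupffer or macrophage-like cells. The Mt1 to Mt2 UMI ratio was 5.22 (5.03 to 5.41) in deep hepatocyte-like cells of suffix 1 and 8.15 (7.15 to 9.33) in those of suffix 2. It was 5.80 (5.54 to 6.09) and 9.25 (7.70 to 11.2) in shallow ones. The intervals of the libraries overlapped in endothelial-like cells, at 5.29 (3.88 to 7.33) and 6 (3.91 to 9.57), and in T-like cells, at 5.43 (4.35 to 6.83) and 7.33 (3.99 to 14.7). Kupffer or macrophage-like cells were at 7.43 (5.78 to 9.68) in suffix 1 and at 18.0 (10.9 to 31.9) in suffix 2, the latter from 16 Mt2 UMIs. Their interval lay above that of the deep hepatocyte-like cells in both libraries, and the intervals of the libraries did not overlap. Both counts come from the 3' ends of transcripts, and this proportion is one of captured molecules.

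Deep cells of 1 library differed widely in Mt1. After thinning to 5000 UMIs, the median cell of suffix 1 had 5 Mt1 UMIs, the highest had 49 and 6.02% of cells had 0. In suffix 2 the median was 1, the highest 18 and 37.8% of cells had 0. The tenth of cells with the most Mt1 held 31.4% and 40.0% of its UMIs. For Mt2 41.6% and 89.3% of cells had 0. The variance over the mean, which counting alone would put at 1, was 5.55 and 2.51 for Mt1 and 2.47 and 1.35 for Mt2. This measure moves with the mean, which was 6.27 and 1.39 UMIs per cell for Mt1, 1.20 and 0.133 for Mt2 and between 0.0342 and 0.885 for the other members, so genes are not compared on it. Across cells Mt1 and Mt2 rose together, with Pearson's r of 0.50 and Spearman's rho of 0.49 over the 548 cells of suffix 1, and 0.22 and 0.18 over the 497 of suffix 2, where most cells lacked a Mt2 UMI. These cells share a library and a preparation, so the correlation is a description.

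**Figure D3:**
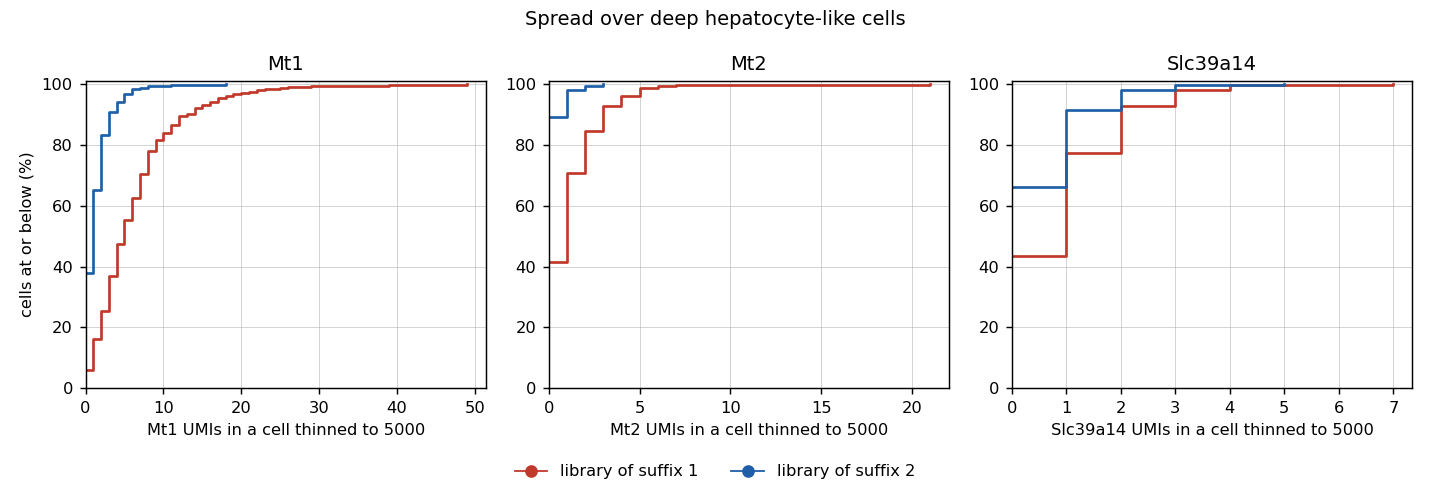
Percent of deep hepatocyte-like cells (y axis) at or below each number of Mt1, Mt2 or Slc39a14 UMIs (x axis), with cells thinned to 5000 UMIs, by library. The steps start at the share of cells with 0, which is 6.02% and 37.8% for Mt1, 41.6% and 89.3% for Mt2, and 43.6% and 66% for Slc39a14.

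Position along the lobule was estimated from the share of pericentral among pericentral and periportal marker UMIs. Over 3 ranges of equal cell number from the periportal to the pericentral side, Mt1 was at 1256, 1347 and 1271 CPM in suffix 1 and at 257, 271 and 279.5 CPM in suffix 2. Mt2 was at 223, 276 and 247 CPM and at 41.2, 30.1 and 22.2 CPM, so that its interval at the pericentral side (15.99 to 29.99) lay below that at the periportal side (34.5 to 48.8) in suffix 2, an order not seen in suffix 1. Slc39a14 was at 180.3, 180.1 and 170.2 CPM and at 116, 90.7 and 71.3 CPM. Depth moved with this score, from a median of 31315 to 18788 UMIs per cell in suffix 1 and from 18975.5 to 8633 in suffix 2, where the mitochondrial share also went from 17.0% to 8.98% and Alb from 47801 to 29994.5 CPM. Their part in the lower Mt2 and Slc39a14 levels was not tested.

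Mtf1, the zinc sensor, was low and nearly level between the libraries. Deep hepatocyte-like cells had 16.2 and 15.7 CPM, a ratio of 1.03 (0.825 to 1.30). Kupffer or macrophage-like cells were higher at 40.0 and 32.4 CPM, 2.24 and 1.95 times the T-like level, and endothelial-like cells had 31.9 and 32.2 CPM. The sensor gene was thus higher per UMI in these non-parenchymal classes than in deep hepatocyte-like cells of either library. Mtf1 lies at chr4:124802104-124849800 on the plus strand with 11 exons, and 2 annotated genes overlap it, 1 of them on the same strand, which makes its count uncertain.

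Slc30a1 encodes the zinc exporter of the plasma membrane, a known target of MTF1 (chr1:191906767-191913247, plus strand, 2 exons). Deep hepatocyte-like cells had 17.1 and 8.88 CPM, from 242 and 68 UMIs, a ratio of 1.93 (1.47 to 2.56). In shallow ones the ratio was 1.01 (0.655 to 1.58). Kupffer or macrophage-like cells had 29.6 and 24.95 CPM, 4.06 and 5.25 times the T-like level, and endothelial-like cells had 22.3 and 25.4 CPM. Of the Slc30a1 UMIs, Kupffer or macrophage-like cells held 14.9% and 30.1% in their library, where they made up 2.69% and 8.02% of the kept cells. Their Slc30a1 ratio between the libraries was 1.19 (0.857 to 1.645).

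Slc30a10, known as an exporter of manganese, went the other way (chr1:185454848-185468762, plus strand, 4 exons). Deep hepatocyte-like cells had 22.4 CPM in suffix 1 and 34.2 CPM in suffix 2, from 316 and 262 UMIs, a ratio of 0.653 (0.553 to 0.772). It was 0.528 in shallow ones, at 11.9 and 22.5 CPM. Most of its UMIs were in hepatocyte-like cells, 62.8% in deep and 26.4% in shallow ones of suffix 1, and 54.9% and 23.3% in those of suffix 2. The level was 3.08 and 8.42 CPM in Kupffer or macrophage-like cells and 1.33 and 3.56 CPM in T-like cells. No Slc30a10 UMI was found in 8 of 16 classes in suffix 1 and in 6 of 16 in suffix 2. In suffix 1 these zeros allow from 4.78 CPM (endothelial-like) to 57.9 CPM (basophil or mast-like). In suffix 2 they allow from 4.95 CPM (plasmacytoid dendritic-like) to 99.85 CPM (basophil or mast-like). Some of these limits lie above the level of deep hepatocyte-like cells, so those zeros do not show a lower level.

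Slc39a14 encodes ZIP14, an importer of zinc, manganese and iron (chr14:70303469-70351425, minus strand, 10 exons). Deep hepatocyte-like cells had 178 CPM in suffix 1 and 96.4 CPM in suffix 2, a ratio of 1.84 (1.70 to 2.00). With a mitochondrial limit of 10% the levels were 125 and 38.5 CPM, so both the level in suffix 2 and the ratio of the libraries (then 3.25) depended on that limit. Shallow ones had 50.04 and 43.8 CPM, a ratio of 1.14 (0.975 to 1.34), whose interval included 1. Deep over shallow, the ratio was 3.55 and 2.2. Plasmacytoid dendritic-like cells had 51.04 and 82.6 CPM, from 43 and 50 UMIs, which was 1.73 and 5.64 times the T-like level. After thinning, 6.96% and 16.1% of them had a Slc39a14 UMI (unthinned 28.7% and 37.6%), against 2.69% and 1.75% of T-like cells (9.50% and 6.61%). Cholangiocyte-like cells had 91.3 and 85.3 CPM, from 18 and 12 UMIs.

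Slc39a4 encodes ZIP4, best known as the zinc importer of the gut (chr15:76612383-76617384, minus strand, 11 exons). Deep hepatocyte-like cells had 22.6 and 20.8 CPM, a ratio of 1.09 (0.896 to 1.32), and shallow ones 19.2 and 18.85 CPM. Neutrophil-like cells had 49.1 and 63.5 CPM, from 18 and 7 UMIs, 6.17 and 7.29 times the T-like level, and cholangiocyte-like cells had 55.8 and 42.7 CPM from 11 and 6 UMIs. In suffix 2, 1 cholangiocyte-like cell held 4 of the 6, and the level without it was 17.2 CPM, below that of deep hepatocyte-like cells. These are counts of few molecules. Thinned to 1000 UMIs, 4.72% and 4.44% of neutrophil-like cells had a Slc39a4 UMI, against 1.43% and 0.584% of T-like cells.

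**Figure D4:**
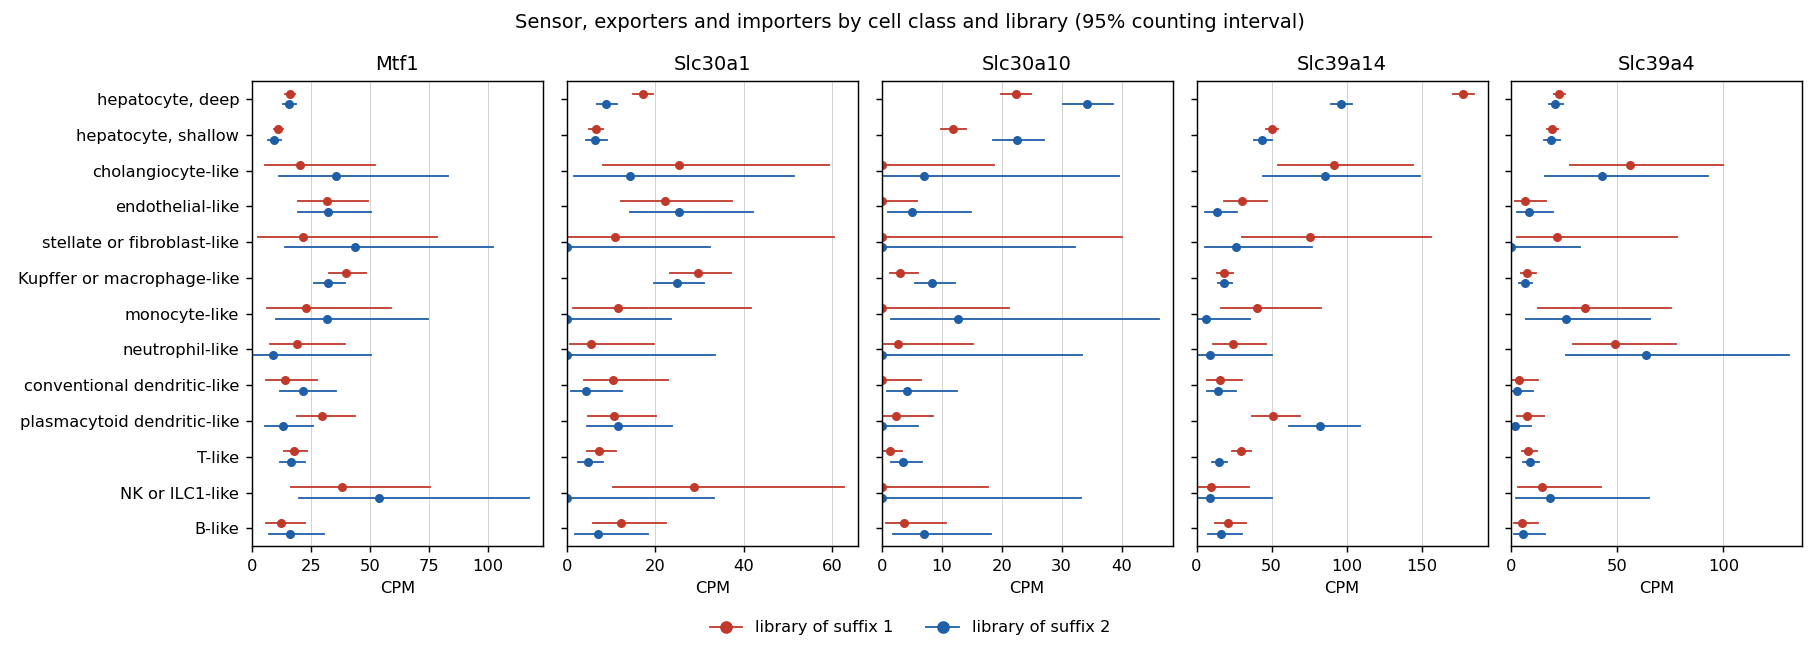
CPM (linear axis, with its own scale for each gene) of the sensor, exporter and importer genes in each cell class with at least 15 cells in both libraries, with 95% counting intervals. Mtf1 and Slc30a1 lie higher in Kupffer or macrophage-like than in deep hepatocyte-like cells, and Slc39a14 in deep hepatocyte-like cells lies at 178 and 96.4 CPM.

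The wider zinc list held 22 other genes, of which 8 reached 10 CPM in deep hepatocyte-like cells of either library. Of those 8, 0 differed by 2-fold, beside 4.57% of all genes tested, and the median log2 ratio was 0.20. Among those 8, the 3 highest in suffix 1 were also the 3 with the largest ratios. Slc30a9 was at 53.0 and 33.2 CPM (1.60; 1.38 to 1.85), Slc30a5, which moves zinc into the secretory pathway, at 34.2 and 22.6 CPM (1.51), and Slc39a1, a zinc importer, at 31.3 and 24.7 CPM (1.27). Slc39a7, a zinc channel of the endoplasmic reticulum, was among the 3 highest in suffix 2, at 28.2 and 31.6 CPM (0.891), as was Slc39a11 at 25.1 CPM. Below 10 CPM, Slc39a13 was at 5.80 and 3.27 CPM (1.78; 1.12 to 2.90). Mt3 and Mt4, the metallothioneins of brain and of squamous epithelium, had 0 UMIs, which allows up to 0.212 and 0.392 CPM.

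Other gene groups were counted in the same cells. Among genes of at least 10 CPM, copper handling genes had 0 of 6 past 2-fold, glucocorticoid targets 0 of 7 and oxidative stress genes 0 of 4. Of all genes tested in these cells, 4.57% passed 2-fold, so counts of 0 in lists this short are near that share. Among the glucocorticoid targets the largest ratios went both ways, with Tsc22d3 at 110.1 and 163 CPM (0.677) and Fkbp5 at 79.2 and 54.1 CPM (1.46), and the intervals of Zbtb16 and Tat also lay below 1. Of 11 acute phase genes, 8 reached 10 CPM. Of these 8, 0 were 2-fold higher and 3 were 2-fold lower in suffix 1 (Orm1, Orm2 and Lcn2), beside 2.56% and 2.01% of all genes. Orm1 was at 10.75 and 607 CPM. Below 10 CPM, Socs3 was higher (4.66; 1.85 to 15.07), and Saa3 (0.410; 0.284 to 0.588) and Il1rn (0.2955; 0.0897 to 0.872) were lower in suffix 1. Of 10 genes of the response to dissociation, 7 reached 10 CPM. Of these 7, 5 had an interval below 1 (Egr1, Fos, Ier2, Jun and Junb) and 1 above it (Hspa1b), with a median log2 ratio of -0.45. Below 10 CPM, Hspa1a (6.77; 1.69 to 58.98) and Fosb (2.17; 1.02 to 5.115) had intervals above 1, and Atf3 (0.5165; 0.328 to 0.811) had one below it. The share of all genes with an interval off 1 was not computed. Egr1 was at 7.075 and 20.1 CPM, Fos at 5.52 and 10.97 CPM and Hspa1b at 12.7 and 6.14 CPM. Their relation to the metallothionein difference was not tested.

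**Figure D5:**
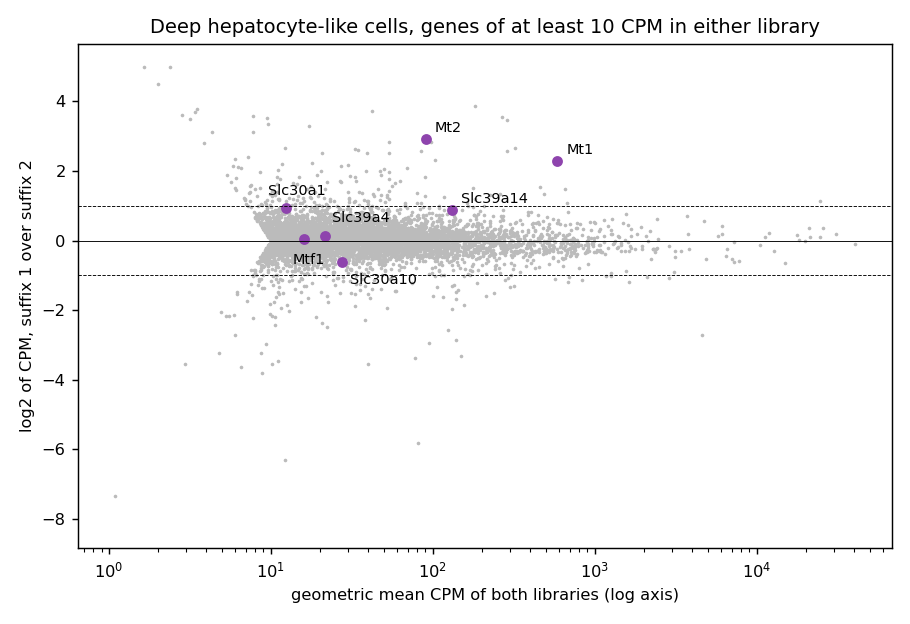
log2 ratio of CPM, suffix 1 over suffix 2 (y axis), against the geometric mean CPM of both libraries (x axis, log scale) in deep hepatocyte-like cells; each point is a gene with at least 10 CPM in either library, with the members named; dashed lines mark 2-fold, and 1 gene with no UMI in suffix 1 is not drawn. Mt1 (4.83) and Mt2 (7.56) lie above the upper line, and the other members lie between the lines.

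Genes that varied most like Mt1 plus Mt2 across deep hepatocyte-like cells were searched among 1003 genes with a mean of at least 0.5 UMIs per cell in both libraries after thinning. The 3 closest had a weak Pearson's r over the 548 and 497 cells, with 0.20 and 0.20 for Ifitm3, 0.17 and 0.20 for Ttc36, and 0.16 and 0.22 for Apoa2. Without thinning 4 of the 10 closest were retained, and such values are not taken as a finding.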

How the data were processed

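The deposited matrix holds raw UMI counts that the authors made with Cell Ranger, for each gene in each barcode; the processing notes of the submitters name Cell Ranger 7.1.0, STAR 2.7.2a, bcl2fastq 2.20.0 and the build mm10. The counts were used as deposited, for 2 libraries told apart by barcode suffix and assigned to no genotype. Cells needed at least 500 UMIs, 200 genes and at most 25% UMIs of 13 mitochondrial genes. A class needed at least 3 markers of its list and 0.1% of UMIs; a cell was mixed if another list had more than 0.5 times as many markers, or if hepatocyte markers made up 5% of its UMIs at 5000 UMIs or more, and hepatocyte-like if no list was reached and hepatocyte markers made up 5%. The 15 marker lists came from the design, and Ahsp was not matched; these limits were set after the cells were seen, since a first rule on marker number alone placed deep hepatocytes among Kupffer cells. No doublet caller was run, so doublets other than mixed cells remain.

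UMIs were summed per class and library and divided by the class total (CPM), with exact 95% Poisson intervals; ratios carry exact conditional binomial intervals and shares Clopper-Pearson intervals. There were no tests or p-values, because each group was 1 library and cells are not replicates. Depth per class and the UMI numbers set the precision; a count of 0 allows up to 3 UMIs. Shares of cells were compared after thinning to 1000 UMIs. The background is the share of genes of at least 10 CPM past 2-fold. The named genes are the 7 members, and from each other list the highest or most different by the rule of the design. The members and lists were chosen with earlier results of these data known. Statistics were tested on simulated Poisson counts. The intervals assume such counts, so this could not test them under the wider spread between cells seen here. Python 3.11.15, numpy 2.4.6, scipy 1.17.1, pandas 2.3.3 and matplotlib 3.10.9 were used. Alternatives were other mitochondrial limits, marker numbers and hepatocyte limits, means over cells, subtraction of the B-like level or, chosen after seeing the data, the T-like level, other thinning and leaving out the cell with the most UMIs. Positions and transcripts are from GENCODE M21 on GRCm38, promoters from RefSeq, and the use of strand and introns in counting was not given in the sources used here.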

Additional observations from a re-analysis of the deposited data

Results flagged for a closer look

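Droplets with over 25% mitochondrial UMIs, 5675 in suffix 1 and 8886 in suffix 2, were left out of the levels above, other than the alternatives with a higher or no mitochondrial limit, and they held UMIs of all 7 members above the level that a count of 0 allows (0.162 and 0.114 CPM). Mt1 was at 289 CPM in suffix 1 and 51.7 CPM in suffix 2, and Mt2 was at 58.4 and 6.89 CPM. With mitochondrial UMIs left out of the total, Mt1 was at 658 and 119 CPM and Mt2 at 133 and 15.9 CPM. The order of the libraries was that of the kept cells. Over the full total, Mtf1 was at 5.675 and 3.33 CPM, Slc30a1 at 7.945 and 6.09 CPM, Slc30a10 at 10.4 and 17.3 CPM, Slc39a14 at 71.2 and 37.5 CPM, and Slc39a4 at 22.9 and 21.5 CPM. Per 1000 Alb UMIs, Mt1 had 10.1 UMIs in suffix 1 and 1.64 in suffix 2.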

How the results depend on the processing

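The Mt1 and Mt2 levels of deep hepatocyte-like cells, 4 values, were recomputed under 56 alternatives, of which 30 stayed within the counting interval and 26 moved. In suffix 1, Mt1 (1292 CPM) was 1852.5 with a mitochondrial limit of 10%, 1207.6 with 50% and 1059 with none, 1252 as a mean over cells, 886 with the CPM of B-like cells and 1123 with that of T-like cells subtracted, 1273 without the cell with the most UMIs and 1342 with hepatocyte markers at 8%; the last and the T-like subtraction were chosen after seeing the data. In suffix 2, Mt1 (267 CPM) was 321, 242 and 156.5 with those mitochondrial limits, 212 and 232 with the B-like and T-like levels subtracted and 255 without the top cell. Mt2 in suffix 1 (248 CPM) was 266, 232 and 204 with those limits, 239 as the average of single cells, 178 and 216.5 with the B-like and T-like levels subtracted, 238 without the top cell and 258 with markers at 8%. Mt2 in suffix 2 (32.8 CPM) was 20.2 with the limit of 10%, 19.8 with none and 27.4 and 28.0 with the B-like and T-like levels subtracted. The cause of these shifts was not tested. Across 14 alternatives the ratio of the libraries ranged from 4.18 to 6.77 for Mt1, 6.50 to 13.2 for Mt2, 1.78 to 3.25 for Slc39a14, 1.57 to 2.84 for Slc30a1 and 0.625 to 0.752 for Slc30a10, each on the same side of 1. For Mt1 in endothelial-like cells the ratio went from 1.62 to 0.0335 with the B-like and 1.11 with the T-like level subtracted. Of 1141 alternatives for 105 further values, 180 moved, 72 of them with the B-like and 59 with the T-like subtraction. No paired analysis was possible because each library is 1 sample with no replicate. With 1 library per label, differences between animals or preparations cannot be told apart from differences of genotype, and classes of few cells rest on few UMIs.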

Other observations

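In droplets of at least 5000 UMIs with hepatocyte markers, Mt1 was lower the higher the mitochondrial share, in both libraries. With mitochondrial UMIs left out of the total, Mt1 was at 1986 CPM in 65 droplets of up to 10% mitochondrial UMIs in suffix 1, 1514 CPM in 483 droplets of 10% to 25%, 938 CPM in 114 droplets of 25% to 50% and 404 CPM in 262 droplets above that. In suffix 2 it was at 334, 307, 170 and 68.1 CPM, in 145, 352, 141 and 742 droplets. Slc39a4 went the other way, from 21.3 to 94.55 CPM and from 11.8 to 76.8 CPM between the lowest and the highest range, as did Alb, from 38812 to 103198.5 CPM and from 34845 to 99066 CPM. Slc39a14 was highest in the range of 25% to 50%, at 357 and 218 CPM. The ratio of Mt1 between the libraries was above 1 in each of the 4 ranges.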
